A study of Homo sapiens with 6 samples.

Results

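The replication-dependent histone genes code for the H1, H2A, H2B, H3 and H4 proteins that package newly copied DNA. Their members were taken by symbol, as every gene named H1-1 to H1-6 or with an H2AC, H2BC, H3C or H4C number. This gave 66 of the 38100 genes in the tables: 6 H1, 16 H2A, 17 H2B, 13 H3 and 14 H4 genes. The transcripts of these genes were barely sampled, which gave 0.00670% to 0.00805% of the counts of a library. With edgeR and all samples, no member passed an adjusted p of 0.05 between cells with and without added SIRT4, where 2 of 17720 genes did. limma voom with sample weights called 2 of 26 members, where it called 1685 of 17720 genes. When 1 library with a shift along gene length was left out, H4C15 passed, with a log2 fold change of -0.25. It was 1 of 27 members tested, where 1227 of 18287 genes passed.

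HK2 is an established human line of proximal tubular epithelium, labelled here with the genotype WT. Its cells had been infected with an empty adenovirus (AdCtrl) or with one that carries SIRT4 (AdSIRT4), a sirtuin known mainly from mitochondria. Both groups were stimulated with TGF-β1, so that no sample shows the cells without TGF-β1 or without a virus, and each group held 3 samples. For work on cultured cells, the study gives n as the number of technical replicates. If this holds for the sequenced samples, the SDs and p-values below describe the spread between these samples and not between independent experiments. Total counts were 42102861 to 53677241 in AdCtrl cells and 41537353 to 85684748 in AdSIRT4 cells. Detection limits below cover counting error only, and the intervals of fold changes also hold the spread between samples.

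SIRT4 separated the groups as labelled, with 31, 47 and 57 raw counts in the AdCtrl samples against 1996, 7995 and 6827 in the AdSIRT4 samples (log2 fold change 6.36, SE 0.357, adjusted p = 0.00801, edgeR's quasi-likelihood test). Of 11 tubular epithelial markers, 10 had counts in every sample. KRT8, KRT18, PAX8, CDH2 and GGT1 lay at or above 194 CPM (counts per 1000000, with library sizes scaled by the TMM method) in every sample, whereas ANPEP, LRP2, CUBN and AQP1, which mark the mature proximal tubule, stayed at or under 0.273 CPM. Markers of leukocytes, endothelium, podocytes and the thick ascending limb (6 genes) summed to 0.330 to 0.800 CPM, and neither of the 2 with enough counts to test (PECAM1 and NPHS1) passed. AdSIRT4 replicate 1 stood apart from the other AdSIRT4 libraries along gene length, and the main comparisons below are therefore given with and without it.

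Replication-dependent histone genes are read in S phase, when NPAT (the cyclin-dependent coactivator of the histone loci) switches them on in nuclear histone locus bodies. Most have no introns. Their mRNA ends shortly after a stem-loop that SLBP, the stem-loop binding protein, holds and that the U7 snRNP helps to cut, and it usually carries no poly(A) tail. Some members also make polyadenylated transcripts that run past the stem-loop, above all in differentiated cells. The libraries of the series were made from mRNA caught on poly-T beads, so the counts cover the polyadenylated or co-purified share of these transcripts, and mRNA without a tail was not targeted.

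The stem-loop is shown first because it is what sets these mRNAs apart from others. A search of GENCODE transcripts (release 29, GRCh38) for the 16-base consensus of the histone stem-loop, read on the strand of the transcript, found it in 25 of the 62 members that have transcripts there, in 5 forms. Capitals mark both arms of the stem and lower case the loop.
Form in 13 members (3 H2A, 7 H2B, 3 H3): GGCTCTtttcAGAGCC
Form in 4 H4 members: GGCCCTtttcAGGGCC
Form in 4 members (3 H2B, 1 H3): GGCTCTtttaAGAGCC
Form in 3 H4 members: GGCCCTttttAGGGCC
Form in 1 H2A member, H2AC11: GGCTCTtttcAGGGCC

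All 7 H4 genes with a match carried a form whose first arm begins with GGCCC, and no other member did. The same search found 123 of 206694 transcripts (0.0595%) and 76 of 58676 genes (0.130%) in the whole annotation. In every one of the 36 member transcripts with a match the stem-loop lay in the 3′ UTR. In H4C15 it sat at chr1:149860769-149860784 on the minus strand, in H2BC21 at chr1:149886188-149886203 on the minus strand, and in H2AC6 at chr6:26124669-26124684 on the plus strand.

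Annotated transcripts often ran on past it. For 19 members at least 1 transcript went on for 100 or more bases after the stem-loop, up to 1761 bases in H2AC11 and 1729 in H2BC21, and these 19 held 57.2% of all counts of the 66 members. For 6 members, H2BC5 among them, every transcript with a match ended within fewer bases, and these held 4.09% of the counts. H2BC5 also has a spliced transcript of 789 bases without a match. The models of 30 further members, including H2BC12 and H1-2, stop at the stop codon and could not show a stem-loop. They held 31.9% of the counts. For 7 members with a model that holds more than coding sequence (in H3C12 a processed transcript without a coding part), no form matched. A further 4 (H2AC18, H2AC19, H3C2 and H3C3) were not found by name.

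Detection was uneven. Of the 66 members, 37 had a count in every sample, 25 in 1 to 5 samples and 4 in none. The 4 without a count were H2AC19, H3C15, H4C6 and H4C7. The limit that 0 counts allow, 3 counts, was 0.0559 to 0.0713 CPM (without TMM scaling) in AdCtrl libraries and 0.0350 to 0.0722 in AdSIRT4 libraries, so these genes were not detectable at this depth and are not shown to be silent. H3C15 shares an identical annotated transcript of 1656 bases with H3C14, which had 45 counts, so its 0 also depends on how reads were assigned and the limit does not hold for it. The same applies to H2AC19, a near-identical copy of H2AC18. The number of members with a count was 52, 47 and 49 for AdCtrl against 47, 58 and 55 for AdSIRT4, in the order of their replicate numbers. The highest numbers stood in AdSIRT4 replicates 2 and 3, which also had the highest totals.

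All members together gave 25703 counts over the 6 samples, and a few genes held most of them. H4C15 took 40.6% and H2BC12 23.7%, and the 10 highest members held 90.3%. The median member had 35 counts over all samples. edgeR's filter (a minimum count of 10) kept 26 members, which held 97.1% of the counts: 2 H1, 7 H2A, 9 H2B, 4 H3 and 4 H4 genes. At the edge of the filter, H2AC13, H2AC15 and H2BC8 were kept with totals of 62, 69 and 72, and H2AC8, H4C5 and H3C14 were left out with 61, 53 and 45.

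**Figure D1:**
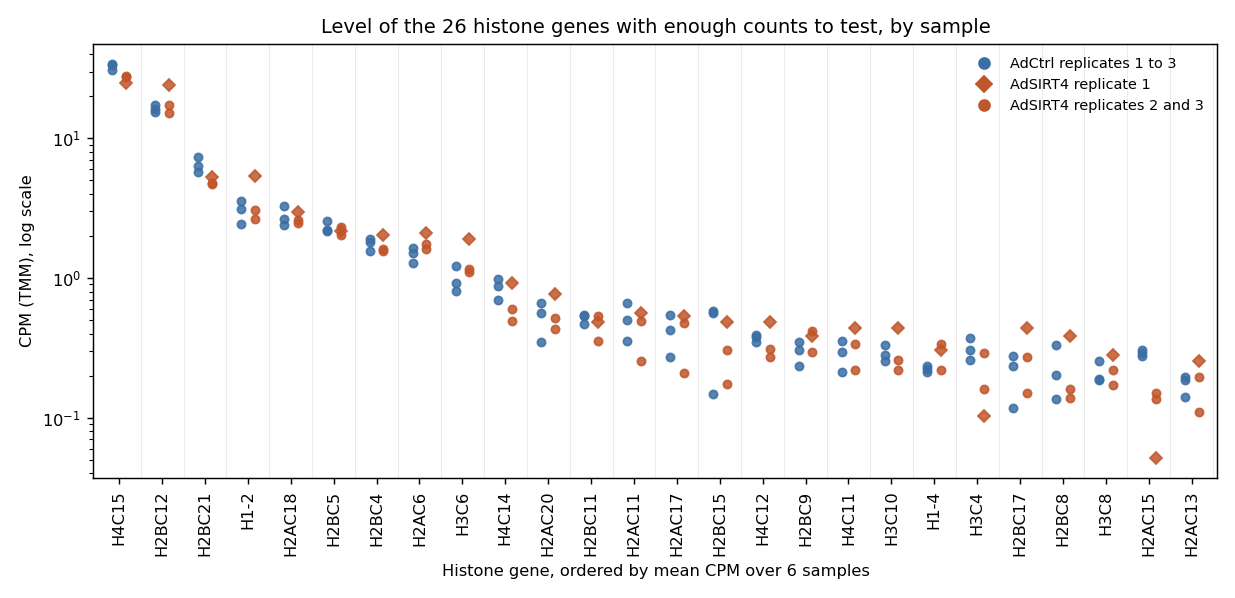
CPM (log scale) of the 26 histone genes tested, in each of the 6 samples; circles are AdCtrl (blue) and AdSIRT4 (orange) samples, and the diamond is AdSIRT4 replicate 1. H4C15 and H2BC12 lie far above the rest, from H1-4 downwards the genes rest on under 100 counts in all, and the diamond is the highest AdSIRT4 point for most genes.

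Levels between genes were compared per length, as FPKM (fragments scaled by gene length and library size, as the authors gave them). The median member stood at 0.194 FPKM in AdCtrl cells, 8 members reached 1 FPKM, and 29 stayed under 0.1. By this measure H2BC12 led with 13.2 ± 1.81 FPKM (SD, n = 3), followed by H2AC18 with 4.57 ± 0.797, H1-2 with 3.64 ± 0.590 and H4C15 with 2.78 ± 0.242. In AdCtrl cells H2AC18 (3.82 to 5.40 FPKM) and H1-2 (3.06 to 4.24) overlapped, whereas H4C15 (2.60 to 3.05) lay below H2AC18 in every sample. H4C15, the highest member by counts, thus ranks behind H2BC12, H2AC18 and H1-2 per length, on an implied length of 12346 bases. Variant histones, most of which are made throughout the cell cycle from polyadenylated mRNA, were higher. The 11 listed had a median of 85.1 FPKM in AdCtrl cells, and the lowest of them, H2AJ, had 24.9 ± 2.91 FPKM (SD, n = 3), above every member.

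Linker histones H1 bind DNA between nucleosomes. H1-2 was the main one detected, with 3.53, 3.11 and 2.45 CPM in AdCtrl cells and 5.36, 3.07 and 2.65 CPM in AdSIRT4 replicates 1, 2 and 3. AdSIRT4 replicate 1 alone lay above the AdCtrl range. The log2 fold change was 0.27 (SE 0.296, adjusted p = 0.796, edgeR) with all samples and -0.09 (adjusted p = 0.811, edgeR) without that library. H1-4 followed with 0.212 to 0.234 CPM in AdCtrl and 0.221 to 0.336 CPM in AdSIRT4 cells. H1-5, next in level, had 20 counts in all and was not tested.

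H2A and H2B form the dimers at the flanks of the nucleosome. H2AC18 had 3.29, 2.38 and 2.63 CPM in AdCtrl cells and 2.95, 2.59 and 2.47 CPM in AdSIRT4 cells, and H2AC6 had 1.65, 1.27 and 1.50 CPM against 2.104, 1.75 and 1.61 CPM. Both overlapped between the groups, with log2 fold changes of -0.06 and 0.30 and intervals (95%) of -0.48 to 0.37 and -0.17 to 0.76. These log2 fold changes were -0.14 and 0.18 without AdSIRT4 replicate 1. H2AC20 followed among H2A genes, at 0.350 to 0.666 and 0.429 to 0.770 CPM. H2AC18 is known to have a near-identical copy in H2AC19, which had no count, so reads of both may be summed in H2AC18.

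H2BC12 had 16.1, 17.3 and 15.5 CPM in AdCtrl cells and 24.2, 17.4 and 15.2 CPM in AdSIRT4 replicates 1, 2 and 3. Again AdSIRT4 replicate 1 stood above all other samples. Its log2 fold change was 0.21 (SE 0.178, adjusted p = 0.765, edgeR), and without that library it came to -0.0013 with an interval of -0.19 to 0.19, the narrowest among the H2B genes. H2BC21, an H2B gene known to be transcribed as polyadenylated mRNA too, had 5.77, 7.30 and 6.34 CPM in AdCtrl cells and 5.26, 4.78 and 4.69 CPM in AdSIRT4 cells. Here every AdSIRT4 sample lay below every AdCtrl sample. H2BC5 stayed between 2.04 and 2.54 CPM in all 6 samples.

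H3 and H4 form the tetramer at the nucleosome core. Among H3 genes, H3C6 had 0.814, 1.22 and 0.915 CPM in AdCtrl cells and 1.90, 1.11 and 1.17 CPM in AdSIRT4 cells, with a log2 fold change of 0.49 (SE 0.293) that was 0.22 without AdSIRT4 replicate 1. H3C10 and H3C4 had 100 and 88 counts in all. For H3C10 the log2 fold change changed sign without AdSIRT4 replicate 1, from 0.02 to -0.28, with an adjusted p of 0.718 (edgeR).

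H4C15 had 33.6, 34.2 and 30.8 CPM in AdCtrl cells and 24.7, 27.7 and 27.6 CPM in AdSIRT4 cells, with raw counts of 1819, 1451 and 1584 against 962, 2387 and 2245. All AdSIRT4 samples lay below all AdCtrl samples. H4C14 followed with 0.980, 0.871 and 0.701 CPM against 0.924, 0.603 and 0.492 CPM, which overlap. H4C12 had 0.350 to 0.388 CPM in AdCtrl and 0.271 to 0.488 CPM in AdSIRT4 cells. H4C14 and H4C15 share an identical annotated transcript of 610 bases, and the 300 bases around their RefSeq starts are identical as well, so the split of reads between them is uncertain.

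Summed over each family, the AdCtrl and AdSIRT4 samples overlapped for H1, H2A, H2B and H3. The H4 sum was 35.9, 36.3 and 32.3 CPM in AdCtrl cells and 26.9, 29.4 and 29.1 CPM in AdSIRT4 cells, without overlap, and came to 29.2 ± 0.199 CPM (SD, n = 2) without AdSIRT4 replicate 1. On the FPKM scale the H4 sums overlapped, at 6.378 to 7.40 in AdCtrl and 5.44 to 6.385 in AdSIRT4 cells. Since H4C15 makes up most of the H4 sum in CPM, this is largely the value of a single gene. Without H4C15 the other 65 members summed to 44.0, 45.7 and 40.4 CPM in AdCtrl cells and to 55.0, 41.7 and 38.4 CPM in AdSIRT4 replicates 1, 2 and 3. The log2 ratio of the group means of that sum was 0.05 with all samples and -0.11 without AdSIRT4 replicate 1. The sums give no decrease common to the families. Where a sum is lower, as for H4 in CPM, bulk cultures cannot tell a smaller share of cells in S phase from less RNA per cell. Neither was tested.

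With all 6 samples, edgeR's quasi-likelihood test called 0 of 26 members at an adjusted p under 0.05, where it called 0.0113% of all 17720 genes. DESeq2 also called 0 members, where it called 119 of 28214 genes. limma voom with sample quality weights called 2, H4C15 (adjusted p = 0.0268) and H2BC21 (adjusted p = 0.0325), where it called 1685 of 17720 genes. At an unadjusted p under 0.05, 3 members were lower in AdSIRT4 cells, against 3.5% of all genes tested, and 0 were higher, against 4.43%. These 3 were H4C15, H2BC21 and H2AC15. The same 3 genes were those tested whose groups did not overlap with AdSIRT4 lower, against 9.77% of all genes, and 0 members were higher without overlap, against 9.66%. The count of 3 was 0 without AdCtrl replicate 2 and 1 without AdCtrl replicate 3. Those fits have fewer samples and called 0 of all genes at an adjusted p under 0.05. In them SIRT4 itself had adjusted p-values of 0.203 and 0.186 (edgeR), and H2BC21 kept log2 fold changes of -0.31 and -0.41. The lower counts therefore do not show that the result rests on single libraries.

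H4C15 had a log2 fold change of -0.30 (SE 0.0987, adjusted p = 0.558, edgeR). H2BC21 had -0.40 (SE 0.136, adjusted p = 0.578, edgeR). H2AC15, an H2A gene of the main cluster, had 15, 13 and 15 counts in AdCtrl cells and 2, 13 and 11 counts in AdSIRT4 replicates 1, 2 and 3, with a log2 fold change of -1.26 (SE 0.412, adjusted p = 0.558, edgeR). Its raw counts overlap, and the groups part once library size is taken into account. A two-sided exact permutation test gave p = 0.1 for each of the 3, the smallest p that 3 samples against 3 allow. Over all members tested, 12 log2 fold changes lay above 0 and 14 below. Their median was -0.04, and over all genes it was 0.02. Leaving out AdSIRT4 replicate 2 or 3 or AdCtrl replicate 2 turned that median above 0, to 0.06, 0.10 and 0.0087.

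For the remaining members the data set limits rather than a difference. SEs ran from 0.0987 to 0.595 with a median of 0.326. For 13 of the 26 members the 95% interval stayed within a log2 fold change of 1 in either direction, and for the other 13 it did not. H2BC5 had an interval of -0.45 to 0.30 and H2BC15 one of -1.88 to 0.94, so a 2-fold change was outside the interval of the former and inside that of the latter.

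Without AdSIRT4 replicate 1, 27 members were tested (H2AC8 was added), and 5 log2 fold changes lay above 0 and 22 below. Their median was -0.16, and that of all genes -0.0028. At an adjusted p under 0.05, 1 member was lower in AdSIRT4 cells, against 3.34% of the 18287 genes tested, and 0 were higher, against 3.37%. At an unadjusted p under 0.05, 4 were lower (H4C15, H2BC21, H2AC15 and H4C14), against 12.5% of all genes, and 0 were higher, against 11.8%. A share of 1 in 27 is close to the background.

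That member was H4C15, with a log2 fold change of -0.25 (SE 0.0683, interval -0.40 to -0.10, adjusted p = 0.0495, edgeR) and both remaining AdSIRT4 samples below all 3 AdCtrl samples. Without AdSIRT4 replicate 1 its adjusted p was also 0.0344 in DESeq2, 0.0137 with replicate numbers as a block and 0.0196 with the length trend removed (edgeR). In this order, those fits called 1464 of 28086, 2523 of 18287 and 1387 of 18287 genes. With all samples, edgeR with the length trend removed gave a log2 fold change of -0.13 and an adjusted p of 0.740. H2BC21 had -0.45 (SE 0.127, adjusted p = 0.0579, edgeR) without that library, and passed with the block as well (-0.53, adjusted p = 0.00460, edgeR). H4C14 had -0.64 (SE 0.289, adjusted p = 0.204, edgeR) and H2AC15 -1.02 (adjusted p = 0.183, edgeR).

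**Figure D2:**
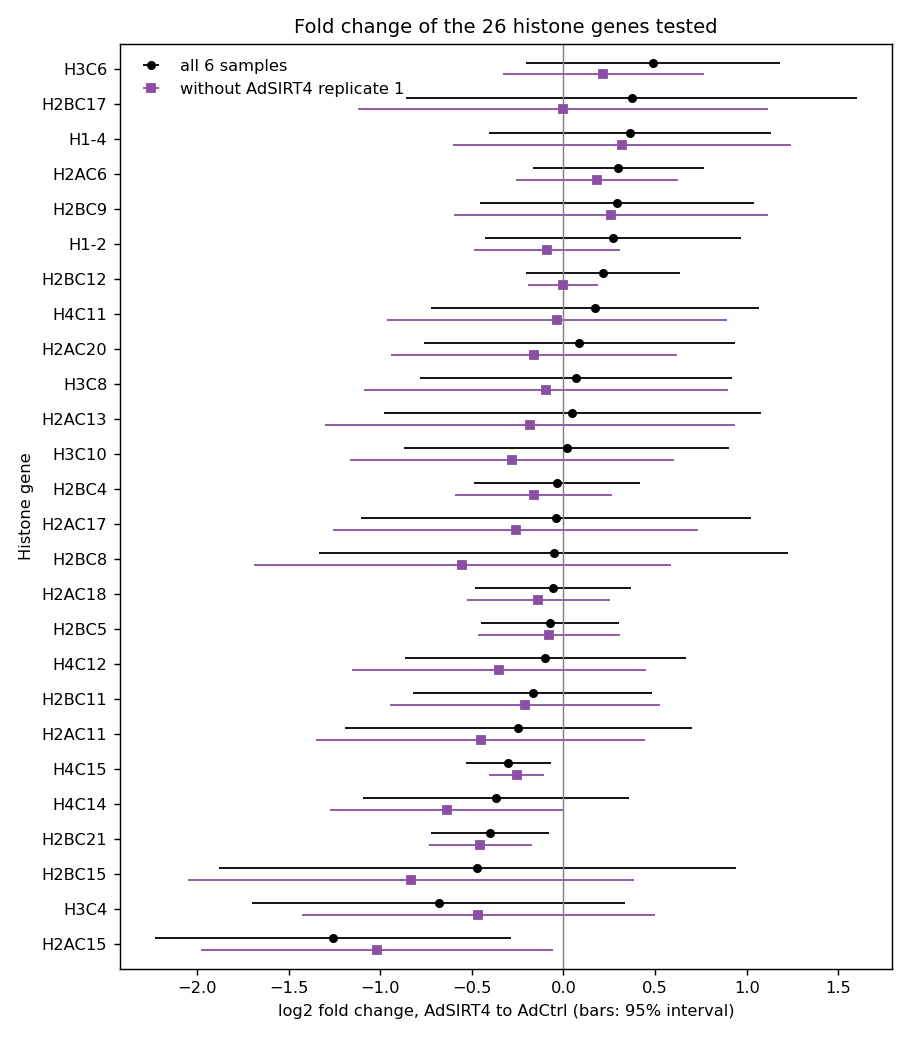
log2 fold change of AdSIRT4 to AdCtrl for the 26 histone genes tested, with 95% intervals, from all 6 samples (black circles) and without AdSIRT4 replicate 1 (purple squares). Most purple squares lie to the left of the black circles, and H4C15, H2BC21 and H2AC15 are the genes whose intervals lie below 0 in both fits.

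The library left out differed from its group along gene length. The log2 ratio of AdSIRT4 replicate 1 to AdSIRT4 replicates 2 and 3 had a median of 0.69 in the 961 tested genes under 1000 bases (lower and upper quartile 0.15 and 0.92), and of -0.83 in the 1269 genes of 10000 bases and more. Length here is the one implied by the counts and the FPKM of a gene. The 21 members under 1000 bases had a median of 0.56, and 19 of them lay above 0, as did 4 of the 5 longer ones. These ratios are damped towards 0 for genes with few counts. The highest were H2BC8 (1.12), H2BC17 (0.90) and H1-2 (0.90), and the lowest H2AC15 (-0.93), H3C4 (-0.85) and H4C15 (-0.16). Undamped, the highest of the members tested were H2BC8 (1.36), H2BC17 (1.05) and H2BC15 (1.02). The lowest were then H2AC15 (-1.48), H3C4 (-1.13) and H4C15 (-0.16). H4C15 thus lay between the short members and the median of genes of its length. What set this library apart was not tested.

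**Figure D3:**
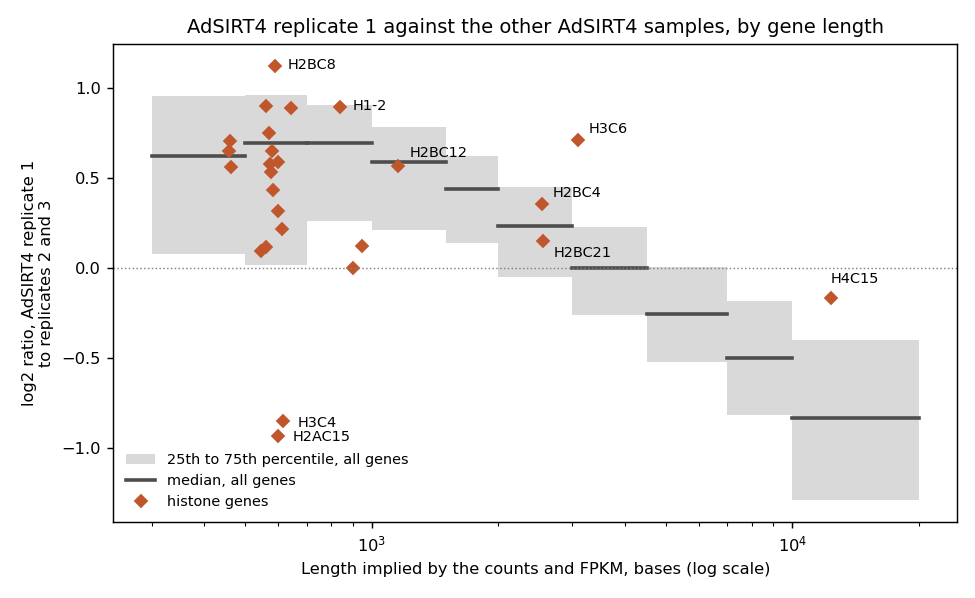
log2 ratio of AdSIRT4 replicate 1 to the mean of AdSIRT4 replicates 2 and 3 against implied gene length (log scale), with the median and quartiles of all tested genes in bins of length, the outermost bins being open, and the 26 histone genes as diamonds. Ratios of histone genes with few counts are damped towards 0. Most short histone genes lie above 0 with the other short genes, H2AC15 (-0.93) and H3C4 (-0.85) lie far below them, and H4C15 (-0.16) lies above the quartiles of its bin.

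Most counts lay in members with a long annotated span. In RefSeq (GRCh38), 58 members span 386 to 797 bases, and 8 span more than 1000: H4C15, H2BC12, H2BC21, H2BC5, H2BC4, H3C6, H3C4 and H2BC18. These 8 held 79.4% of the counts and had a median of 1.62 FPKM in AdCtrl cells, where the other 58 had 0.116 FPKM. Among the members tested are 7 of the 8 and 19 of the 58. For 30 members with a single RefSeq transcript, the implied length was 1.15 to 1.301 times the RefSeq length, with a median of 1.18.

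H4C15 stands at the far end. RefSeq lists 9 transcripts for it over chr1:149844488-149861240, a span of 16753 bases on the minus strand, and the implied length was 12346 bases, whereas 58 members span at most 797 bases in RefSeq. Its span contains H2AC19 and H3C15, both on the plus strand and both without a count. Whether the counts of H4C15 came from the H4 coding part or from the rest of the locus cannot be read from values per gene. H2BC12, with 3 RefSeq transcripts over chr6:27138293-27146858 and an implied length of 1156 bases, contains H4C9 (45 counts in all) on the other strand. H3C4 (88 counts) contains H2AC7 (27 counts) on the same strand, with identical start windows. The strand setting of the counting is not given in the sources used here, so reads in such overlaps cannot be assigned.

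The genes lie on 2 chromosomes, 55 on chromosome 6 from 25726063 to 27893891 and 11 on chromosome 1 from 149782689 to 149887965. Many H2A and H2B genes sit head to head and are read outwards from a shared stretch, which in 11 pairs was 193 to 247 bases long. The octamer stood in 9 of the 11 stretches. As the sequence that both partners share, the stretch is shown for 3 pairs whose partners differed in FPKM. It is also shown for 1 pair (H2BC11 and H2AC11) whose partners did not differ beyond their SDs. The sequences were taken from RefSeq start windows (GRCh38) and run 5′ to 3′ on the strand of the H2A gene, from the base after the H2B start to the base before the H2A start. Capitals mark the octamer ATTTGCAT, bound by OCT factors, and the TATA box TATAAA, on either strand.
H2BC12 and H2AC12, chr6:27146859-27147105, plus strand: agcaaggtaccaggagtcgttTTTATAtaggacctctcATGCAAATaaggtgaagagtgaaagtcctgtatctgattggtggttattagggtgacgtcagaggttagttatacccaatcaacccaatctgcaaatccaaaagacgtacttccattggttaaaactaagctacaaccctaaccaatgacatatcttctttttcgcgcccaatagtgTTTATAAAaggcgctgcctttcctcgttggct
H2BC21 and H2AC20, chr1:149886683-149886917, plus strand: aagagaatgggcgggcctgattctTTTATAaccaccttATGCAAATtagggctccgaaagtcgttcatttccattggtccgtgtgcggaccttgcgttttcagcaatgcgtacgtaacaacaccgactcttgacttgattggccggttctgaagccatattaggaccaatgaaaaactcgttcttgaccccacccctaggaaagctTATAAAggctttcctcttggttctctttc
H2BC11 and H2AC11, chr6:27132796-27133042, plus strand: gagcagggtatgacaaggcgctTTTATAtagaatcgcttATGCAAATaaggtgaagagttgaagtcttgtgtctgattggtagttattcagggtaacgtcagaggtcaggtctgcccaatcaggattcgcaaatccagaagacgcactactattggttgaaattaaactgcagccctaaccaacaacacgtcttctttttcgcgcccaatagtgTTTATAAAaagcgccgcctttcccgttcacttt
H2BC4 and H2AC6, chr6:26123927-26124171, plus strand: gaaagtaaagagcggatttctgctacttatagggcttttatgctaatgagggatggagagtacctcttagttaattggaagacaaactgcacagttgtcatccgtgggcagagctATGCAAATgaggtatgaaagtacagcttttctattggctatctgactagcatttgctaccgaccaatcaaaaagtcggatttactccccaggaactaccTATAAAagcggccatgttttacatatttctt

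The partners of these pairs did not stand at the same level. H2BC12 had 13.9, 14.6 and 11.2 FPKM in AdCtrl cells and 23.3, 18.3 and 13.5 FPKM in AdSIRT4 cells, while its partner H2AC12 had 0.186, 0 and 0.0776 FPKM and 0.0288, 0.0398 and 0.228 FPKM, on 21 counts in all. H2BC21 had 2.56 ± 0.264 FPKM (SD, n = 3) in AdCtrl cells and H2AC20 had 0.912 ± 0.277. In these 2 pairs the H2B gene was the higher one in all 6 samples. In H2BC4 and H2AC6 the order was the other way, at 0.675 ± 0.0491 and 2.48 ± 0.365 FPKM in AdCtrl cells (SD, n = 3), and the H2A gene was also higher in every sample in H2BC17 with H2AC17 and H2BC13 with H2AC13. H2BC11 and H2AC11, at 0.913 ± 0.0506 and 0.892 ± 0.314 FPKM (SD, n = 3), differed by less than their SDs. H2BC12, H2BC21 and H2BC4 are among the members with a long RefSeq span, and their FPKM depends on the length the authors used. By counts over all samples, H2BC12 (6082 against 21) and H2BC21 (1946 against 187) were also above their partners. H2BC4 and H2AC6 were close by counts, at 602 and 584. Their order in FPKM rests on implied lengths of 2534 and 598 bases.

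Where H2BC21 was lower without overlap, its partner H2AC20 overlapped, with a log2 fold change of 0.09 (interval -0.76 to 0.94), and where H2AC15 was lower without overlap, H2BC15 had 8, 24 and 30 counts in AdCtrl cells and 19, 15 and 25 in AdSIRT4 cells (log2 fold change -0.47, interval -1.88 to 0.94). The stretch between H2BC15 and H2AC15 holds neither motif in these letters. Whether partners differ in their response to SIRT4 was not tested.

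Start windows (250 bases before to 50 after the RefSeq start) were at hand for 61 members. The octamer was found on either strand in 14 of 17 H2B and 11 of 15 H2A genes, in 1 of 11 H3 genes and in 0 of 6 H1 and 12 H4 genes, which is 42.6% of the members and 1.80% of all 27305 windows. TATAAA was found in 67.2% of members and 11.95% of all windows. CCAAT, bound by NF-Y, stood in all H1, H2A, H2B and H3 windows and in 3 of 12 H4 windows (85.2% of members, 35.7% of all windows). GGTCCG, the core of an element described in H4 promoters, was found in 11 of 12 H4 genes and in 3 members of the other families, where 11.2% of all windows had it. Windows of head-to-head genes share bases, and H2AC7 with H3C4 and H4C14 with H4C15 have the same window.

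The genes that serve histone mRNA and S phase were given by lists. Of 23 factors of histone transcription and mRNA processing, all were tested and edgeR called 0 at an adjusted p under 0.05 with or without AdSIRT4 replicate 1. SLBP had 179, 170 and 172 CPM in AdCtrl cells and 304, 189 and 181 CPM in AdSIRT4 replicates 1, 2 and 3 (log2 fold change 0.37, SE 0.204; 0.09 without AdSIRT4 replicate 1). NPAT had 35.4, 31.1 and 33.1 CPM against 23.7, 34.7 and 34.9 CPM, and its log2 fold change turned from -0.09 to 0.06. AdSIRT4 replicate 1 was the sample farthest from the AdCtrl range for both genes, above it for SLBP and below it for NPAT. LSM11, a U7 snRNP protein, had -0.38 (adjusted p = 0.612, edgeR), SRRT, which links capped RNA to processing, had 0.27 (adjusted p = 0.628, edgeR), and MIF4GD, the SLBP-interacting translation factor, had -0.24 (adjusted p = 0.698, edgeR). Leaving out AdSIRT4 replicate 1 gave -0.28, 0.24 and -0.33. limma voom with sample weights called SRRT (0.28, adjusted p = 0.0491) and MIF4GD (-0.36, adjusted p = 0.0316), and edgeR without AdSIRT4 replicate 1 and with the replicate block called SRRT (0.25, adjusted p = 0.00114). In the whole data set, voom called 1685 of 17720 genes and the block fit 2523 of 18287.

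Of 14 histone chaperones and 42 genes of DNA replication, edgeR again called 0 in either fit, with medians of the log2 fold change of 0.06 and 0.04 that were 0.0044 and -0.0063 without AdSIRT4 replicate 1. The chaperones with the smallest p were CHAF1A, NASP and RBBP4, with log2 fold changes of 0.17, 0.24 and 0.12 that were 0.19, 0.073 and 0.069 without AdSIRT4 replicate 1. RRM2, the small subunit of ribonucleotide reductase, had 339, 311 and 260 CPM in AdCtrl cells and 247, 242 and 210 CPM in AdSIRT4 cells, with a log2 fold change of -0.38 (adjusted p = 0.593, edgeR) that was -0.43 (adjusted p = 0.0735, edgeR) without that library. RRM2 was called by limma voom with sample weights (-0.38, adjusted p = 0.0290) and by edgeR without AdSIRT4 replicate 1 and with the replicate block (-0.34, adjusted p = 2.69e-06), and CHAF1A by the latter (0.18, adjusted p = 0.0317). These fits called 1685 of 17720 genes and 2523 of 18287 genes. E2F2 had a log2 fold change of -0.24 and MCM6 of 0.17, which were -0.15 and 0.091 without AdSIRT4 replicate 1.

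The 11 variant histones are the closest relatives of the members and were all tested. With all samples edgeR called 0, with log2 fold changes of 0.21 for MACROH2A1 and 0.21 for H3-3B that were 0.045 and -0.069 without AdSIRT4 replicate 1. Without AdSIRT4 replicate 1 edgeR called 0 as higher in AdSIRT4 cells, and those lower included H1-10 (-0.32, adjusted p = 0.0122, edgeR) and H2AJ (-0.42, adjusted p = 0.0121, edgeR). Both are named because they passed. H2AJ had 24.6, 23.1 and 21.6 CPM in AdCtrl cells and 32.1, 17.6 and 16.99 CPM in AdSIRT4 replicates 1, 2 and 3, so that replicate 1 lay above and the others below the AdCtrl range. Of 22 RNAs listed as lacking a poly(A) tail, none was matched to a row, and they were not analysed here.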

How the data were processed

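mRNA of 6 HK2 samples was read as counts per gene. The authors deposited whole-number counts for 38100 genes, without normalization. Their other deposited table holds the same genes on a scale that its header does not name, and was taken as FPKM because its values fit counts divided by a gene length and by library size. The submitters' processing notes name fastp 0.21.0, HISAT2 2.1.0, StringTie 2.1.5, DESeq2 1.30.1 and hg38. The annotation, strand setting and treatment of multimapped reads are not given in the sources used here. The implied length of a gene was taken from both tables, and agreed within 5% over all samples for 12226 of 15894 genes.

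Genes were filtered with edgeR 4.0.16 (minimum count 10), scaled by TMM and compared with its robust quasi-likelihood test, adjusted by Benjamini-Hochberg over all genes tested. Groups and replicate numbers come from the sample titles. Cell-line labels carry different numbers, while every title names HK2. Deviations of same-numbered samples correlated across genes (Pearson's r 0.210, 0.154 and 0.255; -0.221 to 0.055 for other pairs), so the numbers were used as a block in an alternative. No replicate was a copy of another (chi-square per gene 9.36 to 213). The procedure was tested on simulated data in which only genes with higher counts were changed. That test therefore does not cover members with few counts. R 4.3.3, limma 3.58.1, DESeq2 1.42.0 and Python 3.11.15 were used. Other alternatives were RLE scaling, other filters, limma on log2(FPKM + 1) and log2(FPKM + 0.1), a length trend removed per library, voom sample weights and each sample left out.

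The members and the lists of variant histones, histone mRNA factors, chaperones, DNA replication genes, RNAs without poly(A) tails and cell markers were chosen with earlier results of these data known. Named were SIRT4, SLBP, NPAT, the 3 highest members of each family, members with an adjusted p under 0.05 in the fit with or without AdSIRT4 replicate 1, the 3 highest and 3 lowest ratios of that library to the other AdSIRT4 samples, members without a count, and the 3 genes of each list with the smallest p. H2BC21 and H2AC15 also stand out by an unadjusted p under 0.05, and other members and list genes were named after their values were seen. Some genes that meet this rule are not reported here.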

Additional observations from a re-analysis of the deposited data

How the results depend on the processing

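With all 6 samples, edgeR, DESeq2, RLE scaling, other filters, the FPKM scale, the length trend and the replicate block each called 0 members. limma voom with sample weights called 2 (H2BC21 and H4C15). Without AdSIRT4 replicate 1 there was 1 call, and with alternatives chosen after seeing the data 2 (replicate block), 1 (length trend removed) and 1 (DESeq2). Leaving out each sample in turn gave 0 to 1 calls, 0 to 4 members at an unadjusted p under 0.05, and 0 to 1227 calls over all genes. The main count over all genes was 2. It was 119 in DESeq2, 5 with every gene with a count, 4 with 10 counts in every sample, 1 with the replicate block, 0, 1 and 5 in limma on log2(FPKM + 1), log2(FPKM + 0.1) and log2(FPKM + 1) over a mean FPKM of 1, 12 with the length trend removed, 6 with the block as well and 1685 in voom. Without AdSIRT4 replicate 1 it was 2523 with the block, 1387 with the trend removed and 1464 in DESeq2. SIRT4 had an adjusted p of 0.0847 in limma on log2(FPKM + 1). The summed H3 log2 ratio was 0.14 in CPM and -0.12 in FPKM. The replicate block with all samples changed no call of a gene named here, and the cause of these differences was not tested.

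Of 728 values of 38 named genes under the alternatives, 40 changed sign and 27 genes never did. None of the genes that changed sign had an adjusted p under 0.05 in the settings listed here. Sample weights gave -0.032 for H1-2, -0.22 for H2AC20, -0.35 for H3C10, -0.24 for H2BC17, -0.029 for H3-3B and 0.053 for NPAT. The length trend gave -0.031 for H2AC20 and -0.11 for H3C10, and with the block -0.012 and -0.10. H3C10 had -0.0062 with 10 counts in every sample and -0.0077 on log2(FPKM + 0.1), and H2BC8 had 0.00048 on log2(FPKM + 1). Without AdSIRT4 replicate 1 and with the block, H2AC18 had 0.010, H2BC12 -0.0099, H3C10 -0.16, H3-3B -0.036 and NPAT 0.11. Without it and with the trend removed, H2AC20 had -0.038, H2BC5 0.013, H3C10 -0.17, H3-3B -0.051 and NPAT 0.033. Without it, DESeq2 gave -0.087 for H1-2, -0.068 for H3-3B and 0.064 for NPAT. With each sample left out in turn, values ran from -0.088 to 0.46 for H1-2, -0.15 to 0.090 for H2AC18, -0.16 to 0.30 for H2AC20, -0.0013 to 0.35 for H2BC12, -0.28 to 0.22 for H3C10, -0.35 to 0.074 for H4C12, -0.55 to 0.33 for H2BC8, -0.0032 to 0.72 for H2BC17, -0.069 to 0.35 for H3-3B and -0.18 to 0.062 for NPAT.

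Low counts limit most members: 40 of 66 could not be tested, and intervals of 13 of the 26 tested reach past a log2 fold change of 1.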
